A study of Mus musculus with 6 samples.

Results

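The genes described here are those of the myotonic dystrophy type 1 (DM1) locus (Dmpk, Six5 and Dmwd), the muscleblind family (Mbnl1, Mbnl2 and Mbnl3) and 4 genes of the CELF family (Celf1, Celf2, Celf4 and Celf6). They are picked out by gene symbol and number 10 of the 55421 genes in the count table. RNA-seq was performed on mouse myoblasts on day 4 of differentiation, with 3 control libraries and 3 libraries of the miR-322/-503 group. Both groups were stable lines of C2C12, a mouse myoblast line, and both carried a plasmid in which 200 CTG repeats follow a GFP gene, so that the controls express the toxic repeat RNA too. The controls carried the empty vector, and the other line carried the vector with the miR-322/-503 cluster. Each condition was 1 drug-selected line, so a difference between the lines and an effect of the microRNAs cannot be told apart. The study's methods state biological and technical replicates for its assays in general, and the labels do not say which the 3 libraries of a group are, so p-values measure the spread between these libraries, which may be technical.

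In DM1, a CTG repeat in the 3′ untranslated region of DMPK expands, and the transcribed CUG repeats bind muscleblind proteins and hold them in nuclear foci. Muscleblind and CELF proteins are RNA-binding proteins that act on many of the same exons in opposite directions, muscleblind favouring adult exons and CELF1 favouring fetal ones. Loss of free muscleblind protein and a raised CELF1 protein level are the textbook features of DM1 muscle. What RNA-seq counts per gene show is the transcript level, not the protein, its phosphorylation, its localisation or the splicing of its targets.

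The microRNAs come first, since the seed of miR-322 can pair with CUG repeats. The mature sequences below are those of RefSeq, and the capitals mark the seed (bases 2 to 8), with which a microRNA pairs with its target. Both seeds begin with AGCAGC.
miR-322-5p: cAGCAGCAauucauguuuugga
miR-503-5p: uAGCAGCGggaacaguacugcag
The DNA letters that pair with these seeds are TGCTGCT for miR-322-5p and CGCTGCT for miR-503-5p. A run of 200 CTG repeats holds TGCTGCT at 198 overlapping positions and CGCTGCT at 0.

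The longest annotated 3′ untranslated region of each gene was searched for both matches on the transcribed strand. Of 13416 tested genes with such a region, 24.4% held TGCTGCT and 4.87% held CGCTGCT. Dmpk had 2 matches to miR-503, Celf1, Celf4 and Celf6 had 1 match each to miR-322, and Celf2 had 1 of each. Six5, Dmwd, Mbnl1, Mbnl2 and Mbnl3 had none in this window. The median region of the tested genes was 1174 bases long. The regions searched were 6132 bases for Celf1, 7381 for Celf2, 2124 for Celf4 and 1341 for Celf6. They were 2748 to 3738 bases for the muscleblind genes, 864 for Dmpk, 804 for Six5 and 453 for Dmwd. The shares over all genes are not matched for length. The sites are shown as 30 bases of GRCm38, 5′ to 3′ on the strand of the gene, with the match in capitals, since these are the letters of the endogenous transcripts with which a seed could pair. The Celf4 site is not printed.
Dmpk, plus strand, chr7:19092984-19093013: tgctcctgttcgcCGCTGCTctggctgctg
Dmpk, plus strand, chr7:19093336-19093365: agctggtagccacCGCTGCTgcagcagctg
Celf1, plus strand, chr2:91018505-91018534: ggggacttaagtaTGCTGCTtaaggtcctg
Celf2, minus strand, chr2:6545712-6545741: ttgaaagtgacgtTGCTGCTgcgtagactc
Celf2, minus strand, chr2:6540376-6540405: ctataaagtcagcCGCTGCTtaaattcaca
Celf6, plus strand, chr9:59606985-59607014: gacgtggaaggctTGCTGCTgtaaatactg
A match is a description of the letters and not a measured binding site. The mouse Dmpk gene itself carries no expanded repeat: its longest CTG run in this region was 2 repeats. The 200 repeats of the model lie in the plasmid, which was not analysed here.

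The total estimated count per library ran from 73532084 to 92157388, or about 18383021 to 23039347 read pairs. The microRNA genes themselves could not be checked at this depth. For Mir322, the estimated counts were 1, 7 and 2 in the controls against 17, 0 and 3 in the overexpressing line. For Mir503, they were 1, 1 and 2 against 6, 4 and 5. A read pair is about 4 counts in this table and 12 counts, or 3 read pairs, were taken as the floor, so all but 1 of these values lie under it, and a mature microRNA is too short for such a library. The cells carried muscle transcripts in both groups. Of all 18140 tested genes, edgeR called 13.2% higher and 15.5% lower, against which the counts of each gene list are to be read. Of 20 myotube genes, 12 were higher and 2 lower in the miR-322/-503 group (12 and 4 with DESeq2), and their summed level was 4317 to 4779 CPM (estimated counts scaled to library size) in the controls and 5745 to 5875 CPM in the miR-322/-503 libraries. Mef2c, a myogenic transcription factor, had the largest change (log2 fold change 3.61 ± 0.21 (SE), adjusted p = 2.23e-05), and Myh1, an adult fast myosin, went the other way (−1.43 ± 0.11, adjusted p = 7.48e-05). Casq2, a calcium store protein, was higher (1.18 ± 0.08, adjusted p = 3.47e-05). Myog, Mymk, Myh3, Acta1 and Des were named after their values were seen. Myog was the other lower gene, with means of 203.1 and 121.9 CPM (−0.74 ± 0.09, adjusted p = 0.000665). Mymk (−0.41 ± 0.15, adjusted p = 0.0796), Myh3 (−0.05 ± 0.09, adjusted p = 0.735) and Acta1 (0.09 ± 0.08, adjusted p = 0.465) did not pass. Des rose from a mean of 1149 to 1800 CPM (0.65 ± 0.06, adjusted p = 0.000158). Of 10 genes of cycling myoblasts, 2 were higher and 6 lower, with a summed level of 931.6 to 966.4 CPM in the controls and 633.3 to 653.1 CPM in the miR-322/-503 libraries. Mki67, the proliferation antigen, fell by 0.75 on the log2 scale (SE 0.07, adjusted p = 0.000229). Ccnb1, the mitotic cyclin B1, fell by 0.69 (SE 0.09, adjusted p = 0.00106), while Id2, an inhibitor of differentiation, rose by 0.71 (SE 0.09, adjusted p = 0.00109), though not in limma on log2(TPM + 1) (0.61, adjusted p = 0.107). The part of this shift in the differences given below was not tested. Fewer cells of a type and less RNA per cell cannot be told apart in such bulk samples. The summed level of 6 osteoblast genes was 56.4 to 69.4 CPM in the controls and 57.2 to 57.8 CPM in the miR-322/-503 libraries, nearly all of it from Runx2, an osteoblast transcription factor named after its values were seen (61.3 ± 6.4 CPM in the controls and 56.8 ± 0.4 CPM in the miR-322/-503 libraries, adjusted p = 0.362), with Ibsp and Dlx5 at 0 in all 6 and Sp7 at no more than 18 counts. The alkaline phosphatase gene Alpl was the only one of 3 tested osteoblast genes that passed (−2.76 ± 0.61, adjusted p = 0.0135). It had 116, 124 and 151 estimated counts in the controls and 18, 35 and 4 in the miR-322/-503 libraries, the last under the floor. With a filter of at least 10 counts in every library, 0 osteoblast genes were lower. The summed level of 5 adipocyte genes was 14.1 to 16.0 CPM against 11.1 to 13.8 CPM, with Adipoq and Fabp4 at 0 in all 6, Plin1 at no more than 5 counts, and Cebpa lower (−1.002 ± 0.130, adjusted p = 0.00112).

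Of the 10 genes, 9 had enough counts to be tested, and 4 of them were higher in the miR-322/-503 group: Dmpk, Dmwd, Mbnl3 and Celf1. None was lower, and none passed 2-fold. Mbnl1, Mbnl2, Six5, Celf2 and Celf4 did not pass the test, and Celf6 was not tested. Passing means an adjusted p under 0.05 in edgeR's quasi-likelihood test over 18140 genes, in which 13.2% of genes were higher, 15.5% lower, and 9.87% past both this p and 2-fold. DESeq2 called the same 4 genes and no other. Of the 4, 3 remained without miR-322/-503 replicate 1, 2 without control replicate 1, control replicate 2 or miR-322/-503 replicate 3, and 1 without control replicate 3 or miR-322/-503 replicate 2. At an unadjusted p under 0.05, edgeR had 4 of the 9 higher and 1 lower, against 18.8% of all tested genes higher and 20.8% lower. The median log2 fold change was 0.27 over the 9 genes and −0.01 over all tested genes. The groups did not overlap in CPM for 4 of the 9, as for 45.1% of all tested genes.

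**Figure D1:**
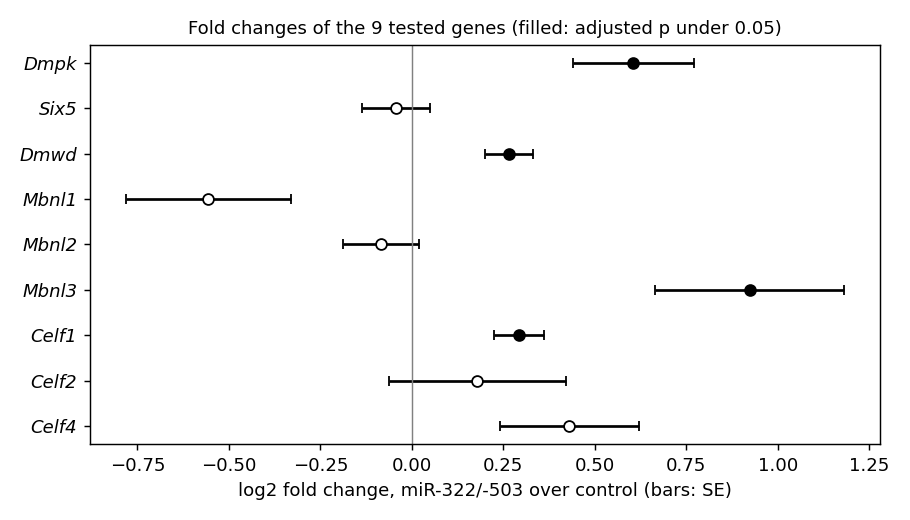
Log2 fold change of each tested gene (x axis, miR-322/-503 over control) with its standard error as a bar; filled points passed an adjusted p of 0.05. The 4 filled points, Dmpk, Dmwd, Mbnl3 and Celf1, lie between 0.27 and 0.92, and Mbnl1 has the lowest value, −0.56, with a wide error.

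Levels between genes can be compared only per transcript length, for which the authors' TPM values were used. In the controls the order by mean TPM was Mbnl1 (163.5 ± 33.3 (SD, n = 3)), Dmpk (138 ± 17.4), Mbnl2 (103.6 ± 15.4), Celf2 (40.6 ± 10.2), Dmwd (34.4 ± 1.9), Celf1 (23.6 ± 1.5), Six5 (9.49 ± 0.56), Mbnl3 (2.74 ± 0.21) and Celf4 (1.24 ± 0.14). Of neighbours in this order, Mbnl1 overlapped with Dmpk and Celf2 with Dmwd. In the miR-322/-503 libraries Dmpk stood highest (216.4 ± 48.2 TPM), above Mbnl1 (111.9 ± 17.5 TPM) and Mbnl2 (106.7 ± 2.5 TPM), whose ranges overlapped. There Dmwd (40.6 ± 0.5 TPM) and Celf2 (38.8 ± 5.0 TPM) overlapped as well. So 2 of the 3 muscleblind genes and Dmpk were abundant in these differentiating myoblasts, and Mbnl3 and Celf4 were near the bottom.

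Dmpk, Six5 and Dmwd lie in one row on chromosome 7 and are read in the same direction. Dmpk codes for a serine/threonine kinase and its transcript is the one that carries the repeat in DM1. The gene spans chr7:19083849-19093821 of GRCm38, with 1072 bases between it and Dmwd (chr7:19076227-19082776), which codes for a WD40-repeat protein, and 772 bases between it and Six5 (chr7:19094594-19098549), which codes for a homeobox transcription factor. Dmpk had 165.2, 136.0 and 133.3 CPM in the 3 controls and 276.3, 206.3 and 178.1 CPM in the miR-322/-503 libraries. Every miR-322/-503 library was above every control, and miR-322/-503 replicate 1 stood above the other 2. The log2 fold change was 0.61 ± 0.17 (SE, adjusted p = 0.0304 in edgeR), a 1.52-fold rise. Without miR-322/-503 replicate 1 it was 0.41 (edgeR adjusted p = 0.0479). The call was lost without control replicate 2 (adjusted p = 0.0991), control replicate 3 (0.0915) or miR-322/-503 replicate 2 (0.0587).

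Dmwd had 39.7, 43.2 and 38.6 CPM in the controls and 47.5, 48.8 and 49.7 CPM in the miR-322/-503 libraries. The groups did not overlap, and the rise was small and even over the libraries (0.27 ± 0.07, adjusted p = 0.0214 in edgeR, 1.20-fold). It was lost without any 1 of 4 libraries: control replicates 1 (adjusted p = 0.0631) and 3 (0.0584) and miR-322/-503 replicates 2 (0.0615) and 3 (0.0751). Six5 had 15.6, 15.3 and 14.2 CPM in the controls and 14.8, 15.6 and 13.4 CPM in the miR-322/-503 libraries. These ranges overlapped nearly in full (−0.04 ± 0.09, adjusted p = 0.78 in edgeR). The 3 neighbours thus gave log2 fold changes of 0.27, 0.61 and −0.04 in the order in which they lie on the chromosome.

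**Figure D2:**
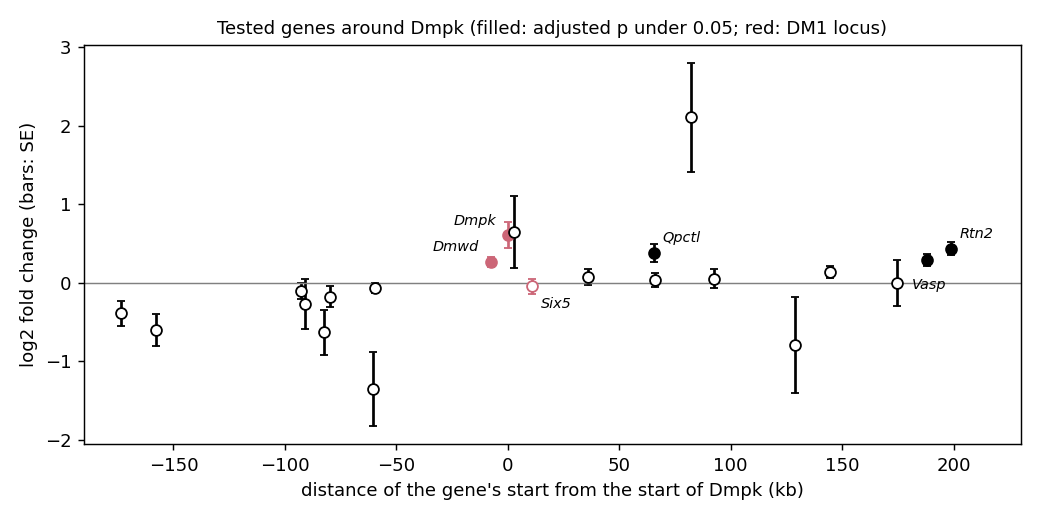
Log2 fold change with its standard error (y axis) of the 22 tested genes at and around Dmpk, against the distance of each gene's start from the start of Dmpk in kb (x axis, negative towards the start of the chromosome); red points are Dmpk, Six5 and Dmwd, and filled points passed an adjusted p of 0.05. Dmpk and Dmwd passed and Six5 lies near 0, and Qpctl, Vasp and Rtn2 are the other genes that passed.

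Within 200 kb of Dmpk, 19 further genes were tested, of which 3 were higher and none lower (of all tested genes, 13.2% and 15.5%), with a median log2 fold change of 0.00 in the range −1.35 to 2.11. At an unadjusted p under 0.05, edgeR had 4 higher and 3 lower, and DESeq2 called 4 higher and 0 lower. Rtn2, a reticulon of the endoplasmic reticulum, rose by 0.44 on the log2 scale (SE 0.08, adjusted p = 0.00703). Qpctl, a glutaminyl cyclase, rose by 0.38 (SE 0.12, adjusted p = 0.0449), and Vasp, an actin filament regulator, rose by 0.29 (SE 0.08, adjusted p = 0.0266). Rtn2 alone of the 3 kept its call with each library left out. Without 1 library, Qpctl kept it only when miR-322/-503 replicate 1 was the one left out (otherwise adjusted p = 0.0834 to 0.137), and Vasp lost it without control replicates 1 or 3 or miR-322/-503 replicates 2 or 3 (adjusted p = 0.0737 to 0.0847). With all 6 libraries, both were lost in limma on log2(TPM + 1) and log2(TPM + 0.1) (adjusted p = 0.0796 to 0.0861 for Qpctl and 0.0898 to 0.0903 for Vasp), and Qpctl was also lost in edgeR with no filter on low counts (adjusted p = 0.0677) and with the replicate block (adjusted p = 0.0626). The median over the 1403 tested genes of chromosome 7 was 0.01.

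**Figure D3:**
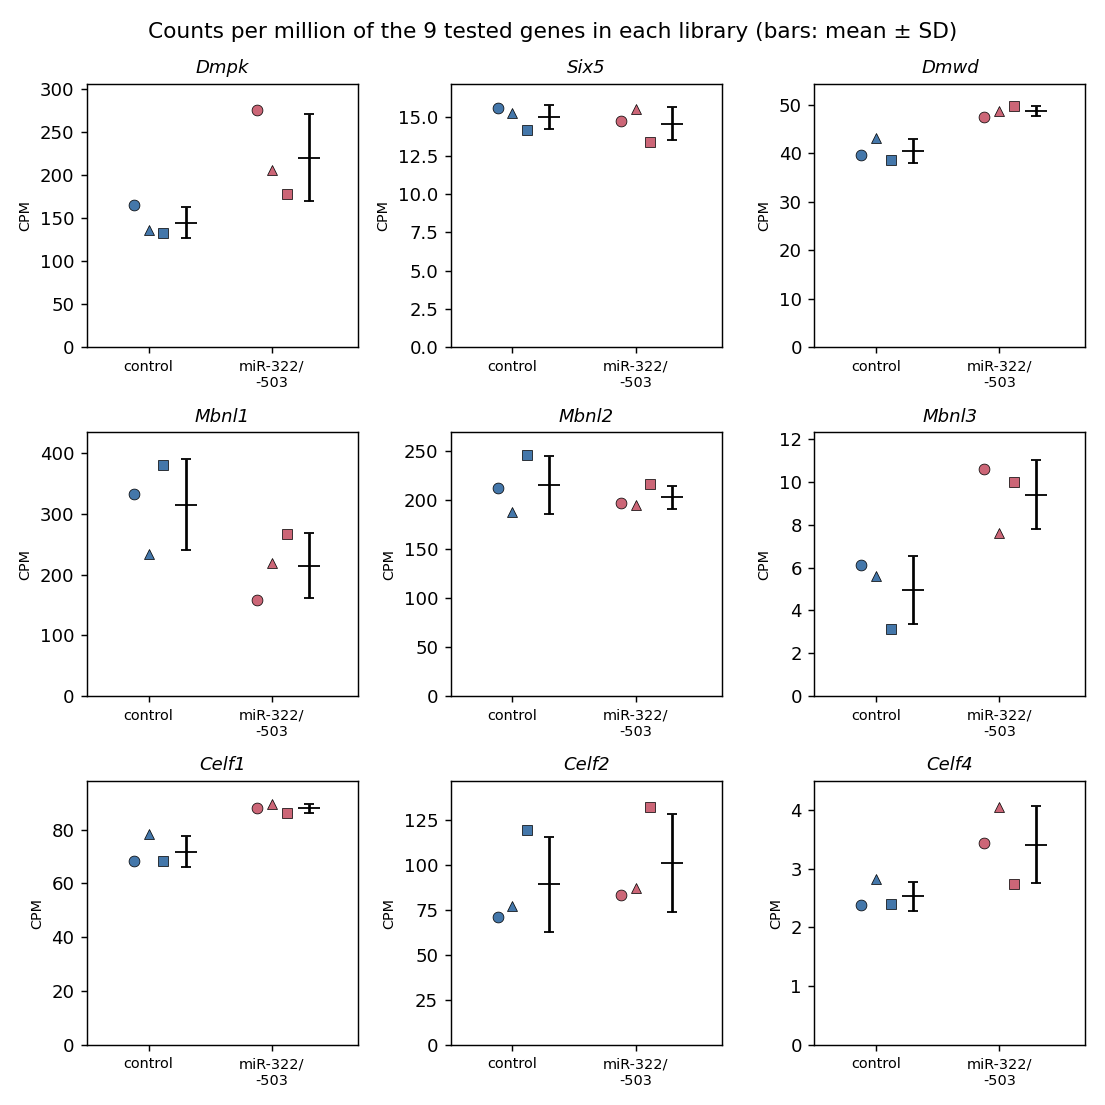
CPM (y axis, from 0) in each library for the 9 tested genes, with circles, triangles and squares for replicates 1, 2 and 3 and bars for the mean and SD of each group. Dmpk, Dmwd, Mbnl3 and Celf1 have all 3 miR-322/-503 points above all 3 control points, and the Mbnl1 points overlap.

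The muscleblind genes code for the zinc finger proteins that the CUG repeats bind. Mbnl1 is the main muscleblind of adult muscle, Mbnl2 is best known for its part in the brain, and Mbnl3 is linked to muscle precursor cells and regeneration. Mbnl1 (chr3:60472830-60629750) had 332.9, 233.6 and 380.8 CPM in the controls and 159.0, 219.1 and 266.3 CPM in the miR-322/-503 libraries. Control replicate 2 lay inside the range of the miR-322/-503 group. The log2 fold change was −0.56 ± 0.23, which did not pass (adjusted p = 0.111 in edgeR and adjusted p = 0.161 in DESeq2). It passed without control replicate 2 (−0.73, adjusted p = 0.0484 in edgeR). Mbnl2 (chr14:120275669-120431697) had 212.3, 187.5 and 246.2 CPM in the controls and 197.5, 195.1 and 216.3 CPM in the miR-322/-503 libraries. The miR-322/-503 values lay within the range of the controls (−0.09 ± 0.10, adjusted p = 0.599 in edgeR). Of Mbnl2 exon bases, 0.717% overlap an antisense gene, Gm26679, and the counting is not stated to use strand.

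Mbnl3 (chrX:51117269-51206532) was the least abundant of the family and the only one that passed the test. It had 6.14, 5.62 and 3.15 CPM in the controls and 10.6, 7.60 and 10.03 CPM in the miR-322/-503 libraries. All miR-322/-503 values were above all controls, and control replicate 3 was the lowest. The log2 fold change was 0.92 ± 0.26 (adjusted p = 0.0331 in edgeR), a 1.90-fold rise. In limma the log2 difference was 0.53 for log2(TPM + 1) (adjusted p = 0.0232) and 0.66 for log2(TPM + 0.1) (adjusted p = 0.026), and the ratio of mean TPM was 1.61. The call was lost without control replicate 2 (adjusted p = 0.0623), miR-322/-503 replicate 1 (0.092) or miR-322/-503 replicate 3 (0.0921). Mbnl3 lies on the X chromosome, 1848 kb from Mir322, and the median over the 580 tested genes of that chromosome was −0.01.

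The makeup of the muscleblind transcript pool was computed within each library as the percentage of each gene in the summed Mbnl TPM. Mbnl1 made up 61.5, 58.4 and 61.4% of the pool in the controls and 45.8, 51.6 and 52.6% in the miR-322/-503 libraries. Its share was lower in 3 of 3 libraries, by 10.4 percentage points on average. Mbnl2 made up 37.5, 40.3 and 37.8% in the controls and 51.7, 46.7 and 45.6% in the miR-322/-503 libraries, with Mbnl3 at 1.01, 1.33 and 0.80% against 2.48, 1.703 and 1.80%. For all 3 genes the groups did not overlap, and each exact permutation test (two-sided) gave p = 0.1, the smallest value that 3 against 3 libraries allow, so a p under 0.05 was out of reach. The 3 shares sum to 100 in each library and are not independent. The summed Mbnl TPM overlapped, at 217.4 to 312.8 in the controls and 201.7 to 239.7 in the miR-322/-503 libraries. Mean Mbnl2 TPM was 103.6 against 106.7, and Mbnl1 did not pass its own test (adjusted p = 0.111 in edgeR). In CPM, 45.1% of all tested genes did not overlap, and no such share was computed for parts of a family. With counts per kb of exons in place of TPM, the difference in the share of Mbnl2 was 6.73 points instead of 9.48 (exact permutation p = 0.2), and that of Mbnl3 2.01 points instead of 0.95 (exact permutation p = 0.1).

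The CELF genes code for RNA-binding proteins that bind UG-rich RNA. CELF1 is the member raised in DM1 muscle and heart, CELF2 is its closest relative and is also found in muscle and heart, and CELF4 and CELF6 are best known from the nervous system. Celf1 (chr2:90940382-91019497) had 68.5, 78.3 and 68.4 CPM in the controls and 87.8, 89.5 and 86.15 CPM in the miR-322/-503 libraries. The groups did not overlap, and the miR-322/-503 libraries lay close together. The log2 fold change was 0.29 ± 0.07 (adjusted p = 0.016 in edgeR), a 1.22-fold rise in the transcript, on which a miR-322 match was found. The call was lost without control replicate 1 (adjusted p = 0.0552), control replicate 3 (0.0509) or miR-322/-503 replicate 2 (0.0566). Over all tested genes with such a region, the median log2 fold change was 0.01 with TGCTGCT and −0.02 without it. CELF1 protein was not measured, and any effect of the match was not tested.

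Celf2 (chr2:6539694-7509563) had 70.8, 77.2 and 119.4 CPM in the controls and 83.2, 87.4 and 132.2 CPM in the miR-322/-503 libraries. Replicate 3 stood high in both groups, and the groups overlapped (0.18 ± 0.24, adjusted p = 0.639 in edgeR). Its sign turned without miR-322/-503 replicate 3 (−0.06). Celf2 passed in edgeR with replicate number as a block (0.19, adjusted p = 0.0297). Of the Celf2 exon bases, 7.58% overlap Gm26565 on the other strand, so reads there cannot be assigned without strand. Celf4 (chr18:25477632-25754157) had 2.38, 2.82 and 2.39 CPM in the controls and 3.44, 4.05 and 2.74 CPM in the miR-322/-503 libraries. Of the miR-322/-503 libraries, replicate 3 alone lay inside the control range (0.43 ± 0.19, adjusted p = 0.137 in edgeR). Celf4 did pass in limma on log2(TPM + 1) (0.81, adjusted p = 0.00224) and log2(TPM + 0.1) (1.18, adjusted p = 0.00371). Celf6 (chr9:59577917-59607292) had 0 counts in 5 libraries and 12 in miR-322/-503 replicate 2, which is the floor, so no fold was computed. In the 5 libraries at 0, the count allows up to 0.126 to 0.160 CPM, for counting error only.

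Within the summed TPM of the 4 CELF genes, Celf1 made up 43.1, 36.2 and 30.8% in the controls and 43.4, 42.7 and 37.4% in the miR-322/-503 libraries. The groups overlapped (exact permutation p = 0.3). Celf2 made up 54.8, 61.8 and 67.6% against 51.7, 53.0 and 59.1%, which also overlapped (exact permutation p = 0.2). Celf4 made up 2.18, 1.99 and 1.57% against 4.83, 4.16 and 3.48% without overlap (exact permutation p = 0.1, the smallest possible), a difference of 2.24 percentage points. With counts per kb of exons the difference was 0.305 points for Celf4 (exact permutation p = 0.5), 1.23 instead of 4.49 for Celf1 and −1.64 instead of −6.78 for Celf2. With TPM, the Celf1 difference was 7.67 points without control replicate 1 and 1.53 without control replicate 3, and the Celf2 difference was −10.1 and −3.65 points without the same libraries. Celf6 was listed at 0 TPM in all but 1 library.

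Celf1 and Mbnl1 were set against each other within each library, as the pair of factors that pull DM1 exons in opposite directions. The ratio of Celf1 to Mbnl1 TPM was 0.135, 0.1997 and 0.117 in the controls and 0.314, 0.258 and 0.223 in the miR-322/-503 libraries. The highest control and the lowest miR-322/-503 library lay close, but the groups did not overlap. The log2 ratio was −2.77 ± 0.40 (SD, n = 3) in the controls and −1.93 ± 0.25 in the miR-322/-503 libraries, a difference of 0.84 (1.79-fold; exact permutation test, two-sided, p = 0.1, the smallest possible). The difference stayed between 0.68 and 1.07 when each library was left out. With counts per kb of exons it was 0.85 (exact permutation p = 0.2), so the separation of the groups was not complete there. For each gene alone, limma on log2(TPM + 0.1) gave −0.54 for Mbnl1 (adjusted p = 0.0626), which did not pass. It gave 0.30 for Celf1 (adjusted p = 0.0355). Mbnl1 transcripts outnumbered Celf1 transcripts in every library.

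**Figure D4:**
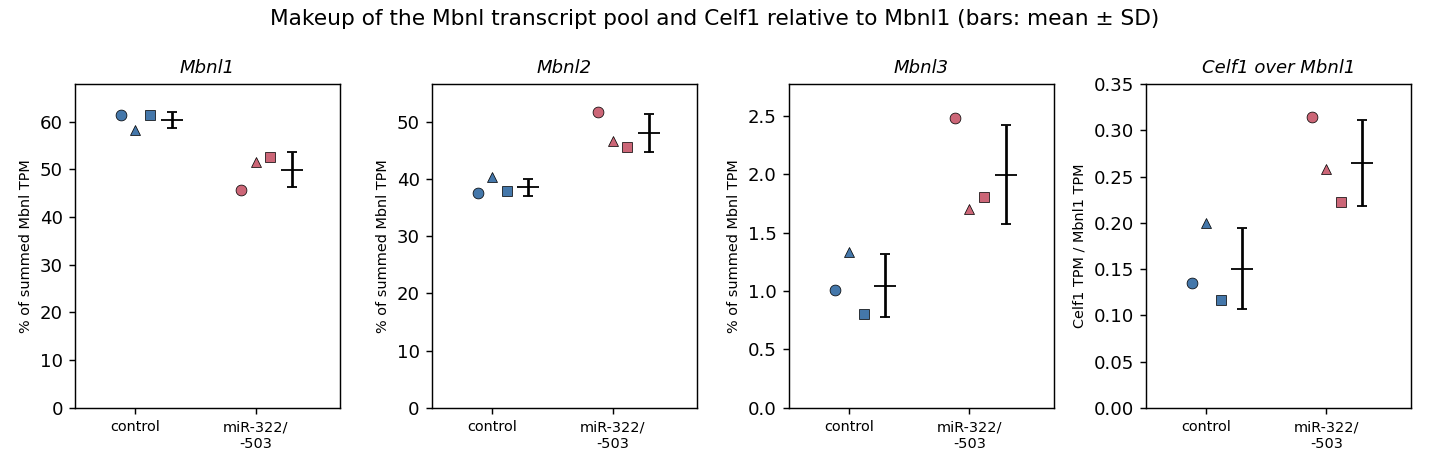
Percentage of Mbnl1, Mbnl2 and Mbnl3 in the summed Mbnl TPM of each library (first 3 panels, y axes from 0) and the ratio of Celf1 to Mbnl1 TPM (last panel), with circles, triangles and squares for replicates 1, 2 and 3 and bars for the mean and SD. The groups do not overlap in any panel, with Mbnl1 at 58.4 to 61.5% in the controls and 45.8 to 52.6% in the miR-322/-503 libraries.

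The authors' TPM and the counts of a gene need not move together, because TPM also depends on which transcripts the reads were assigned to. Dividing one by the other gives the mean transcript length that each gene was assigned in a library. For Celf4 this implied length was 3896, 3828 and 3947 bases in the controls and 2053, 2629 and 1876 bases in the miR-322/-503 libraries. The groups were far apart, and mean TPM was 2.37 times higher while the fold in counts was 1.35. These lengths rest on few reads, since Celf4 had 184 to 328 estimated counts per library. A read pair is about 4 counts, and Celf4 has 10 annotated transcripts. For Mbnl2 it was 3892, 4038 and 3930 bases against 3639, 3513 and 3535 bases, again without overlap. Neither passed a limma test over 11164 genes with more than 1 annotated transcript (Celf4 log2 difference −0.85 ± 0.13, unadjusted p = 0.00178, adjusted p = 0.24; Mbnl2 −0.15 ± 0.02, unadjusted p = 0.00108, adjusted p = 0.194). In that test 0.0358% of genes passed and 754 had an unadjusted p under 0.05. The other 6 genes, Dmpk, Dmwd, Mbnl1, Mbnl3, Celf1 and Celf2, overlapped between the groups. Of all 11164 genes, 12.8% did not overlap in implied length. Celf1 stayed between 5493 and 5835 bases in all 6 libraries, and Dmpk between 1800 and 2002 bases. A shorter implied length does not say which exons or ends were used.

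**Figure D5:**
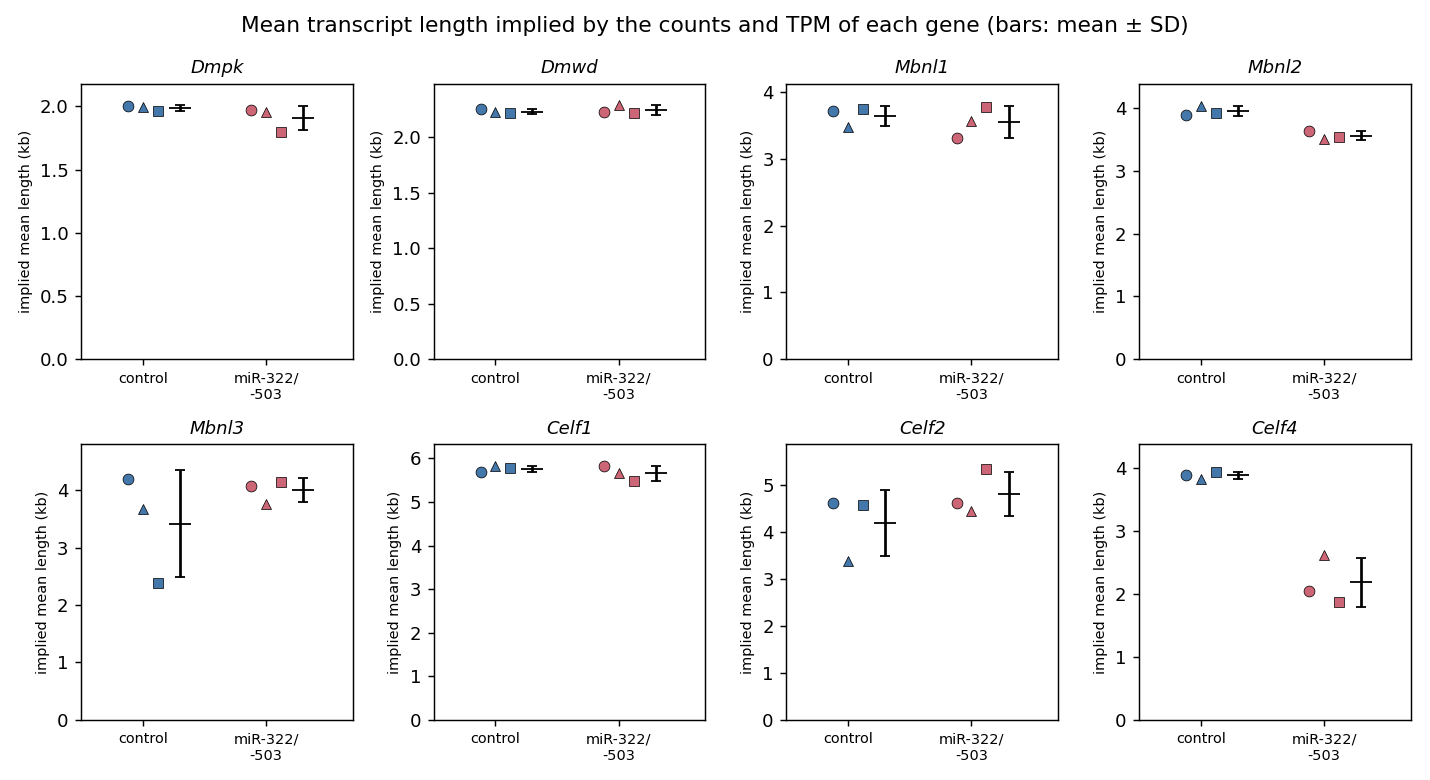
Mean transcript length in kb implied by counts and TPM (y axis, from 0) in each library, for the 8 genes with more than 1 annotated transcript and enough counts; circles, triangles and squares are replicates 1, 2 and 3, and bars give the mean and SD. Celf4 lies at 3890 ± 59.8 bases in the controls and 2186 ± 394 bases in the miR-322/-503 libraries, Mbnl2 differs by less, and the other 6 genes overlap.

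The CELF genes outside the 4 above are Celf3 and Celf5. Celf5, another neural member, had 9.70, 9.54 and 9.49 CPM in the controls and 1.77, 1.37 and 2.10 CPM in the miR-322/-503 libraries. It fell by 2.45 on the log2 scale (SE 0.17, adjusted p = 5.16e-05 in edgeR), past 2-fold and with no overlap. On the TPM scale the fall was smaller, from 5.18 ± 0.18 to 1.67 ± 0.65 TPM, with a limma log2 difference of −1.24 for log2(TPM + 1) (adjusted p = 0.00293) and −1.64 for log2(TPM + 0.1) (adjusted p = 0.00491). Celf3 was under 1 CPM in every library (0.66 ± 0.52, adjusted p = 0.397).

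Kinases and a cyclin that are known to phosphorylate CELF1, or to direct that step, were measured at the transcript level. Of 6 genes, 2 were higher, 1 lower and 3 did not pass (of all tested genes, 13.2% higher and 15.5% lower), with a median log2 fold change of 0.12. Prkca, the protein kinase C isoform that phosphorylates and stabilises CELF1 in DM1, had 81.5, 87.8 and 93.8 CPM in the controls and 61.2, 61.6 and 71.2 CPM in the miR-322/-503 libraries, a fall of all 3 below the lowest control (−0.44 ± 0.08, adjusted p = 0.00633). Gsk3b, a kinase that promotes the loss of cyclin D3 protein, had 53.2, 58.1 and 78.3 CPM against 139.3, 80.6 and 145.8 CPM (0.95 ± 0.24, adjusted p = 0.0224). Ccnd3, cyclin D3 itself, had 52.2, 56.6 and 83.6 CPM against 89.2, 170.4 and 149.2 CPM (1.09 ± 0.26, adjusted p = 0.0194). In both rises 1 miR-322/-503 library lay close to the highest control, and each call was lost without any 1 of 4 libraries. For Gsk3b these were control replicates 1 and 2 and miR-322/-503 replicates 1 and 3 (adjusted p = 0.0732 to 0.084), and for Ccnd3 control replicates 1 and 2 and miR-322/-503 replicates 2 and 3 (adjusted p = 0.0606 to 0.0732). Akt1 (0.17 ± 0.07, adjusted p = 0.124), Cdk4 (0.07 ± 0.08, adjusted p = 0.581) and Prkcb (−0.94 ± 0.37, adjusted p = 0.103), the last under 1 CPM, did not pass.

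Of 6 genes for proteins that unwind, bind or export CUG repeat RNA (Ddx5, Ddx6, Ddx17, Stau1, Dhx9 and Nxf1), edgeR called 0, with 0 higher and 1 lower at an unadjusted p under 0.05, and DESeq2 called 0 higher and 1 lower. Their log2 fold changes ran from −0.25 to 0.15, with a median of −0.05.

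Of 53 other splicing regulators, 49 were tested, 6 were higher, 7 lower and 36 did not pass, with a median log2 fold change of 0.00. These shares are near those of all tested genes, 13.2% higher and 15.5% lower, and are no result about the list. Those past the test with the largest changes had low levels. Rbpms, an RNA-binding protein of smooth and heart muscle, rose from 0.286 ± 0.162 to 1.27 ± 0.39 CPM (2.14 ± 0.49, adjusted p = 0.0151), a call lost without control replicate 2 (adjusted p = 0.0502) or miR-322/-503 replicate 2 (0.0536). Msi1, the stem cell factor Musashi 1, fell from 1.84 ± 0.10 to 0.530 ± 0.237 CPM (−1.79 ± 0.33, adjusted p = 0.00591). Khdrbs3, a relative of Sam68, rose from 2.51 ± 0.54 to 4.76 ± 0.24 CPM (0.92 ± 0.18, adjusted p = 0.00799). Without 1 library, 2 to 5 of the list were higher and 3 to 5 lower, with 2 higher without control replicate 2 and 3 lower without miR-322/-503 replicate 3.

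Of 30 genes whose transcripts are known to be misspliced in DM1, 15 were higher, 2 lower and 13 did not pass (of all tested genes, 13.2% higher and 15.5% lower), with a median log2 fold change of 0.29. These are gene levels and say nothing of their exons. Pdlim3, a Z-disc protein, rose from 25.6 ± 1.2 to 157.0 ± 1.7 CPM (2.62 ± 0.06, adjusted p = 5.55e-07). Trim55, a sarcomeric ubiquitin ligase, rose from 11.4 ± 0.4 to 41.9 ± 1.3 CPM (1.88 ± 0.07, adjusted p = 4.51e-06). Mapt, which codes for tau, rose from 0.467 ± 0.134 to 1.19 ± 0.26 CPM (1.35 ± 0.33, adjusted p = 0.0201), a call lost without control replicate 2 or miR-322/-503 replicates 2 or 3 (adjusted p = 0.0558 to 0.0702). Of the 2 lower genes, Nfix fell from 682.4 ± 94.1 to 271.8 ± 48.1 CPM (−1.33 ± 0.15, adjusted p = 0.000616). It was named after its values were seen. Many genes of this list code for muscle proteins, and 12 of the 20 myotube genes were higher and 2 lower in the same libraries. Whether the changes of these lists are linked was not tested.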

How the data were processed

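Per the submitters' processing notes and the study's methods, reads were filtered by Trim Galore, HISAT2 served for alignment (build GRCm38), and the tables are StringTie output. Versions, annotation and strandedness are not given in the sources used here. The deposited matrix holds estimated counts per gene, written as whole numbers with no scaling. The deposited tables of single libraries hold coverage (a signal per base), FPKM (not used here) and TPM. One count stood for about 75.0 bases of coverage, so a read pair gave about 4 counts, which overstates counting precision. Precision rests on 3 libraries per group with 73532084 to 92157388 counts. Genes were matched by identifier to GENCODE M21, where 55154 of 55421 were found.

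Tests used edgeR 4.0.16 (filterByExpr, TMM, glmQLFTest, Benjamini-Hochberg over 18140 genes) in R 4.3.3, limma 3.58.1 and DESeq2 1.42.0. CPM values were scaled by TMM. SE is the log2 fold change over the square root of F. Shares and ratios used exact permutation tests in scipy 1.17.1. Implied transcript length is count times bases per count over TPM scaled by summed coverage, for genes with at least 40 counts in each library. It was chosen after the values were seen, and over 698 single-transcript genes 98.9% fell within 5% of the true length. Replicates differed by more than sampling noise (chi-square per degree of freedom 12.1 to 17.7), so none was a copy. Scripts were tested on simulated data.

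The genes and lists were chosen with earlier results of these data known. Named were all 10 genes, all of the CELF1 kinase and other CELF lists, up to 3 genes of each other list past adjusted p 0.05 with the largest log2 fold change (mean CPM in the higher group not below 1), and up to 4 such genes within 200 kb of Dmpk. Further genes were named after their values were seen, where the text says so. Alternatives were other size factors, filters, counts divided by 4, log2(TPM + 1) and log2(TPM + 0.1), a test against 2-fold, a replicate block, chromosome medians and leaving out each library. The scaling without a composition factor and the alternatives for implied length were added after seeing the data.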

Additional observations from a re-analysis of the deposited data

How the results depend on the processing

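The 4 genes higher with edgeR also passed with DESeq2, other size factors, no composition factor, all genes with a count, a stricter filter (10 counts or more in each library) and counts divided by 4. A test against a change of at least 2-fold called 0 of them. Leaving out 1 library left 1 to 3 of the genes higher and 0 to 1 lower. With log2(TPM + 1) 5 were higher, Celf4 included (0.81, adjusted p = 0.00224), and with log2(TPM + 0.1) Celf4 (1.18, adjusted p = 0.00371) took the place of Dmwd (0.24, adjusted p = 0.0506). Genes near 0 changed sign. Six5 turned to 0.00253 without a composition factor and ran from −0.0915 to 0.0144 with a library left out. Mbnl2 turned to 0.0527 and 0.0533 in the fits of log2(TPM + 1) and log2(TPM + 0.1), and ran from −0.178 to 0.0203 with a library left out. Celf2 turned to −0.0391 and −0.0393 in the same fits and ran from −0.0635 to 0.445. The implied length ran from −0.00667 to 0.0186 for Dmwd and from −0.0836 to 0.0111 for Mbnl1 (log2). Celf4 and Mbnl2 kept their direction, at −0.99 to −0.74 and −0.17 to −0.13. With counts per kb of exons the difference in share was 6.73 points for Mbnl2, 2.01 for Mbnl3 and 0.305 for Celf4. It shrank from 4.49 to 1.23 for Celf1 and from −6.78 to −1.64 for Celf2, and was −8.75 in place of −10.4 for Mbnl1. The Celf1 to Mbnl1 log2 ratio differed by 0.85 in place of 0.84 (exact permutation p = 0.2). Of the counts over the other lists, 172 of the values under other settings and 85 of those with a library left out stayed within 1.5 times, and 26 and 23 did not. No cause of these changes was tested.

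Replicate numbers were shared by the groups, but the deviations of same-numbered libraries correlated at only 0.241, 0.137 and 0.096, so the numbers were not taken to pair the samples. Each library correlated best with its own number in the other group, which is a hint from the data and not the design. With the replicate block, 5 of the genes were higher, Celf2 included (0.19, adjusted p = 0.0297), and 5733 genes passed in place of 5218. Depth limits Celf6 and the microRNA genes, and 3 libraries per group allow no exact p under 0.1.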

Other observations

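Gpc4, a cell surface glypican on the X chromosome, was seen while the neighbours of Mbnl3 were listed, and was chosen after its values were seen. It lies 0.846 Mb from the end of Mbnl3, on the side of the miR-322/-503 cluster. It had 408, 311 and 271 estimated counts in the controls and 0, 5 and 0 in the miR-322/-503 libraries, which is under the floor of 12 counts in each. No test is given, since the gene was picked by these values.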
